A study of Mus musculus with 2 samples.

Results

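The ionotropic glutamate receptor subunits described here are 10 genes: the AMPA receptor subunits Gria1, Gria2, Gria3 and Gria4, the NMDA receptor subunits Grin1, Grin2a, Grin2b and Grin3a, and the kainate receptor subunits Grik2 and Grik5. They were taken by symbol from the 43346 mouse genes in the gene tables, and their 61 listed transcripts from the transcript tables. Forebrain RNA longer than 200 nt from mice of strain B6NCrl at postnatal day 0 was made into Smart-seq libraries from 13 pg of RNA, an input of 1 cell-equivalent. The labels name a single-cell assay, yet they give a single forebrain as the source of each RNA, so the values describe mixed tissue. There was 1 library from pup 1 (replicate 1) and 1 from pup 3 (replicate 2), all in 1 group without treatment or mutation, and the pups' sex was not collected. The labels describe separate pups yet give both the same donor identifier. With 1 library for each pup, no difference between them could be tested, and a difference between pups cannot be told apart from a difference between library preparations.

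Ionotropic glutamate receptors are tetrameric cation channels opened by glutamate. AMPA receptors carry most fast excitatory transmission, and their calcium permeability is set largely by whether they contain the Gria2 product, whose messenger RNA is normally edited in the pore-coding region. NMDA receptors need the obligatory Grin1 product, which binds the co-agonist glycine or D-serine, together with glutamate-binding Grin2 subunits; Grin2b is the prominent forebrain form around birth and Grin2a rises later in postnatal life. Kainate receptors combine low-affinity subunits such as the Grik2 product, which form channels by themselves, with high-affinity subunits such as the Grik5 product, which need a partner.

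The libraries held 41082811 (pup 1) and 29881397 (pup 3) estimated reads, of which spike-in RNA took 4.46% and 7.30% and mitochondrial genes 5.02% and 6.003% of the level in TPM, a level scaled for transcript length and library total. A gene was called found at a TPM of 1 or more, which 9061 protein-coding genes reached in pup 1 and 6223 in pup 3. Of 8 neuronal markers, 7 were found in both libraries, and their summed level was 11149 TPM in pup 1 and 5611 TPM in pup 3. Of 10 forebrain markers 5 were found in both (summed 498 and 518 TPM), with Emx2 and Dlx2 at 0 in both, whereas no hindbrain or spinal cord marker of 8 was found (summed 0.02 and 0 TPM, 7 at 0 in both). The tissue also held non-neuronal transcripts: all 6 astrocyte markers (706 and 542 TPM) and all 5 erythroid markers (1750 and 3276 TPM) were found in both libraries, as were 4 of 6 radial glia markers (1736 and 2482 TPM). Marker sums in pup 1 and pup 3 were 64.0 and 28.7 TPM for oligodendrocyte precursors (1 of 5 found in both), 269 and 114 TPM for microglia (1 of 8), and 74.3 and 169 TPM for endothelial and mural cells (3 of 6). Meningeal markers summed to 127 and 111 TPM (3 of 4) and choroid plexus markers, mainly Ttr, to 1809 and 1898 TPM (1 of 4). GABAergic markers summed to 350 and 160 TPM, with 2 of 5 found in both. In RNA from whole tissue, fewer cells of a type and less RNA per cell cannot be told apart.

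Of the 10 subunit genes, 8 were found in both libraries, Grin1 was found in pup 1 alone and Grin2a in neither. Over all protein-coding genes, 24.8% were found in both libraries. Together the members reached 446 TPM in pup 1 and 263 TPM in pup 3. AMPA subunits made up 67.9% of this in pup 1 and 60.8% in pup 3 (64.4% ± 5.02, SD, n = 2). NMDA subunits took 22.6% and 8.24% (15.4% ± 10.2, SD, n = 2), and the kainate pair took 9.45% and 30.9% (20.2% ± 15.2, SD, n = 2). AMPA genes thus held the largest share in both libraries, while the order of the other families differed: NMDA exceeded kainate in pup 1 (101 against 42.1 TPM) and kainate exceeded NMDA in pup 3 (81.4 against 21.7 TPM).

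**Figure D1:**
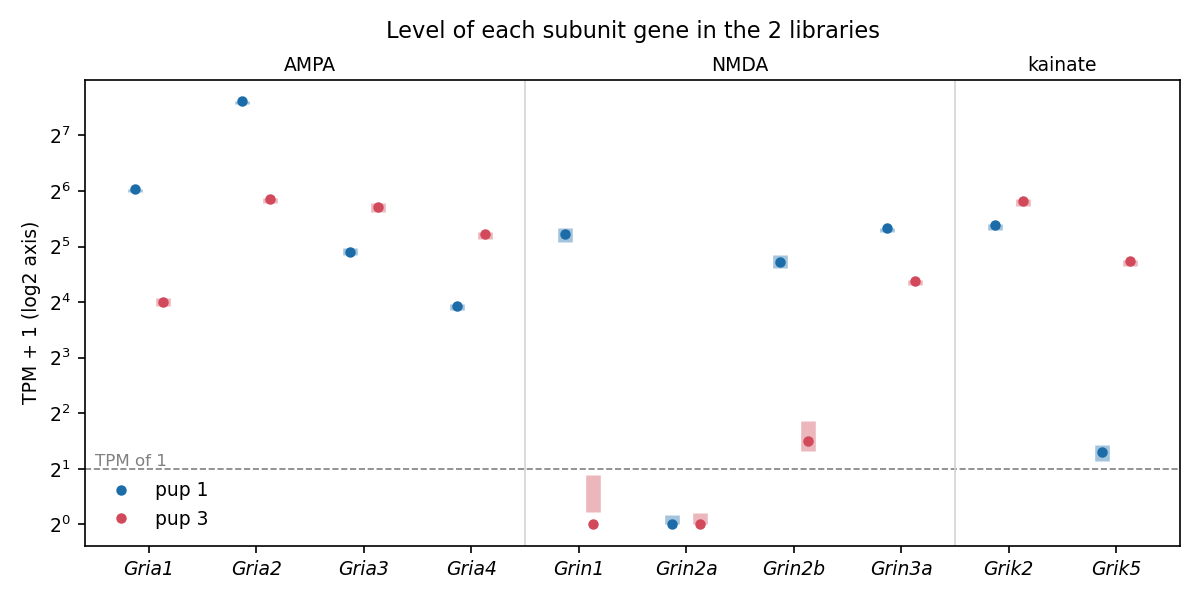
Level of each subunit gene (TPM + 1, log2 axis) in pup 1 (blue) and pup 3 (red); points are the deposited TPM and shaded bars the deposited credibility bounds, and the dashed line marks a TPM of 1. Gria2 is the highest point in both libraries, Grin1 lies at 0 in pup 3 and Grin2a lies at 0 in both.

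Gene positions are given on build GRCm38. Gria2 (ENSMUSG00000033981, chr3:80681450-80802835), whose product limits calcium entry through AMPA receptors, was the most abundant member in each library, at 195 TPM in pup 1 (18597 reads) and 56.8 TPM in pup 3 (5387 reads), or 126 ± 97.9 TPM (SD, n = 2). Its level was 3.44-fold higher in pup 1. Gria1 (ENSMUSG00000020524, chr11:57011387-57330244), the partner of Gria2 in many forebrain AMPA receptors, was second in pup 1 at 64.2 TPM (9245 reads) and seventh in pup 3 at 15.1 TPM (1841 reads), a 4.25-fold difference in level. The deposited credibility bounds, which cover read sampling and assignment within a library, ran from 62.0 to 64.9 TPM in pup 1 and from 14.3 to 15.9 TPM in pup 3. They did not meet for Gria1, and over the 10 members they overlapped between pups for Grin2a alone. The share of all genes with overlapping bounds was not taken, so this count shows nothing particular to the members.

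Gria3 and Gria4, which encode the other AMPA subunits, had the opposite order between pups. Gria3 (ENSMUSG00000001986, chrX:41400854-41678601) was at 28.9 TPM in pup 1 (3868 reads) and 51.4 TPM in pup 3 (3589 reads), 40.2 ± 15.9 TPM (SD, n = 2). Gria4 (ENSMUSG00000025892, chr9:4417896-4796234) was at 14.3 TPM in pup 1 (2032 reads) and 36.5 TPM in pup 3 (1939 reads), 25.4 ± 15.7 TPM (SD, n = 2). Each was thus higher in pup 3 per length, by 1.78-fold and 2.55-fold, although each had slightly fewer reads there. In CPM (reads scaled to the library total, not for length), Gria4 was at 49.5 in pup 1 and 64.9 in pup 3 (log2 ratio 0.38 with 1 added) and Gria3 at 94.2 and 120 (log2 ratio 0.35). With TMM factors, which also correct for library composition, the log2 ratios were 0.18 and 0.14. The transcript assigned to Gria4 in pup 3 was shorter than that in pup 1, and TPM divides by that length.

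The AMPA mix therefore differed between the libraries. In pup 1, Gria2 gave 64.5% of AMPA TPM, Gria1 21.2%, Gria3 9.55% and Gria4 4.73%. In pup 3, Gria2 gave 35.5%, Gria3 32.2%, Gria4 22.8% and Gria1 9.45%. Gria2 led in both, but in pup 3 its level and that of Gria3 were close (56.8 and 51.4 TPM), with bounds of 54.2 to 57.3 and 48.3 to 54.4 TPM that overlap. The mean Gria2 share was 50.03% ± 20.5 (SD, n = 2).

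Grin1 (ENSMUSG00000026959, chr2:25291181-25319187), the subunit that all NMDA receptors contain, had 1359 reads in pup 1 (36.3 TPM, bounds 32.9 to 39.6) and 0 reads in pup 3. A count of 0 allows up to 3 reads, or 0.0457 TPM in that library, and the deposited upper bound was 0.847 TPM; such limits cover counting error within the amplified library and not the loss of molecules before amplification. Grin2b (ENSMUSG00000030209, chr6:135713233-136173511), the glutamate-binding subunit prominent at birth, was at 25.5 TPM in pup 1 (5051 reads) and 1.83 TPM in pup 3 (544 reads), 13.9-fold higher in pup 1. In CPM it was 6.75-fold higher there, and 7.83-fold with TMM factors. Grin2a (ENSMUSG00000059003, chr16:9567898-9995560) had 0 reads in both libraries, with upper limits from 3 reads of 0.0339 and 0.0388 TPM and deposited upper bounds of 0.130 and 0.148 TPM. All reads of the Grin2a and Grin2b pair were therefore assigned to Grin2b in each library.

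Grin3a (ENSMUSG00000039579, chr4:49661611-49845744), a glycine-binding subunit that lowers calcium permeability and is known for its high level in the early postnatal brain, was at 39.1 TPM in pup 1 (7586 reads) and 19.8 TPM in pup 3 (3372 reads), 29.5 ± 13.6 TPM (SD, n = 2). It had the highest level of the 4 NMDA members in both libraries. In pup 1 it stood close to Grin1 (39.1 and 36.3 TPM), with overlapping bounds of 37.5 to 39.2 and 32.9 to 39.6 TPM. Its share of NMDA member TPM was 38.8% in pup 1, beside 36.0% for Grin1 and 25.2% for Grin2b. The place of Grin1 in pup 1 rests on a short processed transcript: without non-coding models its share was 14.4%, against 33.9% for Grin2b and 51.7% for Grin3a, and by reads it was 9.71%. In pup 3 the Grin3a share was 91.6%, beside 8.44% for Grin2b and 0% for Grin1.

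The kainate genes differed in how far the libraries lay apart. Grik2 (ENSMUSG00000056073, chr10:49094833-49788766), a subunit that forms channels alone, was at 40.6 TPM in pup 1 (4773 reads) and 55.7 TPM in pup 3 (3887 reads), 48.1 ± 10.6 TPM (SD, n = 2). That 1.37-fold difference was the smallest among members with reads, and its direction is the same in CPM (116 in pup 1 and 130 in pup 3) but flips in CPM with TMM factors (129 and 125). Grik5 (ENSMUSG00000003378, chr7:25009849-25072346), a high-affinity partner subunit, was at 1.46 TPM in pup 1 (145 reads) and 25.7 TPM in pup 3 (2225 reads). It was 17.6-fold higher in pup 3 and differed most among members found in both libraries. Grik2 gave 96.5% of the pair's TPM in pup 1 and 68.4% in pup 3.

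**Figure D2:**
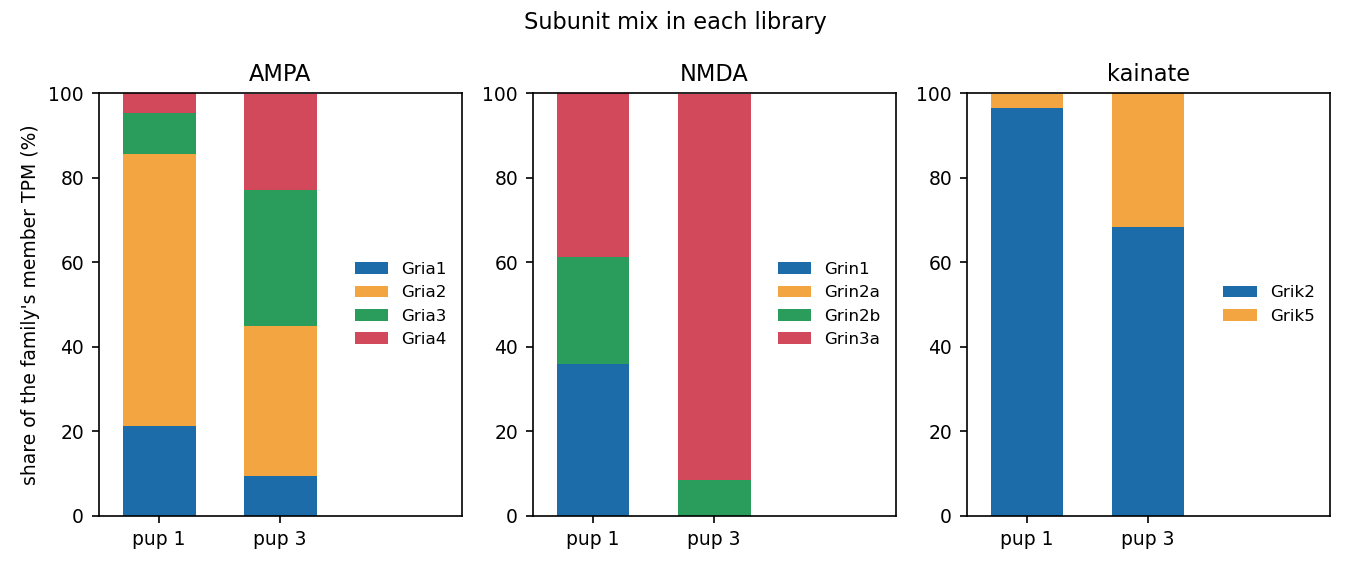
Share of each family's member TPM (%, stacked bars) given by each subunit in pup 1 and pup 3. Gria2 is the largest AMPA share in both libraries, Grin3a is 38.8% of the NMDA members in pup 1 and 91.6% in pup 3, and Grik2 is the larger kainate share in both.

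Ordered by level, pup 1 ran from Gria2 through Gria1, Grik2, Grin3a, Grin1, Gria3, Grin2b and Gria4 to Grik5. Pup 3 ran from Gria2 through Grik2, Gria3, Gria4, Grik5, Grin3a and Gria1 to Grin2b. Neighbours whose bounds overlap, and so do not separate within a library, include Grik2 and Grin3a in pup 1 (38.5 to 41.5 and 37.5 to 39.2 TPM) and Gria2 and Grik2 in pup 3 (54.2 to 57.3 and 52.3 to 56.8 TPM). Gria2 was clear of every other member in pup 1 but not in pup 3.

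Ratios between pups were taken as log2 of TPM + 1 in pup 3 over pup 1, which understates the change of low genes. By this measure 4 members were over 2-fold lower in pup 3: Gria1 (-2.02), Gria2 (-1.76), Grin1 (-5.22, a value that depends on the added 1 because pup 3 had 0 reads) and Grin2b (-3.23). Without transcripts annotated as non-coding there were 3, since the Gria2 ratio was then -0.57. There were 2 members over 2-fold higher in pup 3, Gria4 (1.29) and Grik5 (3.44), and the Gria4 ratio falls within 2-fold in CPM, with or without TMM factors. Gria3 (0.81), Grik2 (0.44) and Grin3a (-0.95) lay within 2-fold, and Grin2a had no reads to compare. Of the 9670 protein-coding genes at a mean TPM of 1 or more, 48.2% were over 2-fold lower and 23.1% over 2-fold higher in pup 3. Of the 7005 at a mean TPM of 10 or more, the level that 9 members reached, 38.0% were lower and 25.7% higher. The members' counts, 4 lower and 2 higher, are near those shares.

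The median ratio over the 10 members was -0.47, between Grin2a at 0 and Grin3a, and over the 9 with reads it was that of Grin3a (-0.95). These 9 members all had a mean TPM of 10 or more, and the median over the 7005 protein-coding genes at that level was -0.23; at 1 or more it was -0.82. The members ranged from -5.22 to 3.44. Summed over families, AMPA and NMDA subunits were 1.89-fold and 4.66-fold higher in pup 1. Without non-coding models these were 1.20-fold and 3.46-fold. In CPM they were 1.92-fold and 2.60-fold, and with TMM factors 2.23-fold and 3.01-fold. The neuronal markers were lower in sum in pup 3, mostly through Tubb3 (6275 and 1872 TPM), with 3 of 8 over 2-fold lower, while Dcx (87.0 and 115 TPM) and Syt1 (85.5 and 116 TPM) were higher and Stmn2 was level (1786 and 1738 TPM). The part of neuronal content in the result was not tested. For Grik2 and Grik5 together the ratio of pup 1 over pup 3 was 0.585 in CPM and 0.678 with TMM factors. In TPM they also went the other way, at 42.1 (pup 1) against 81.4 (pup 3). Kainate subunit genes outside the members did not. Grik1 (19.4 against 0.02 TPM), Grik3 (6.04 against 0.00) and Grik4 (0.96 against 0) were all lower for pup 3. The contrast between families therefore depends on which kainate genes are members.

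**Figure D3:**
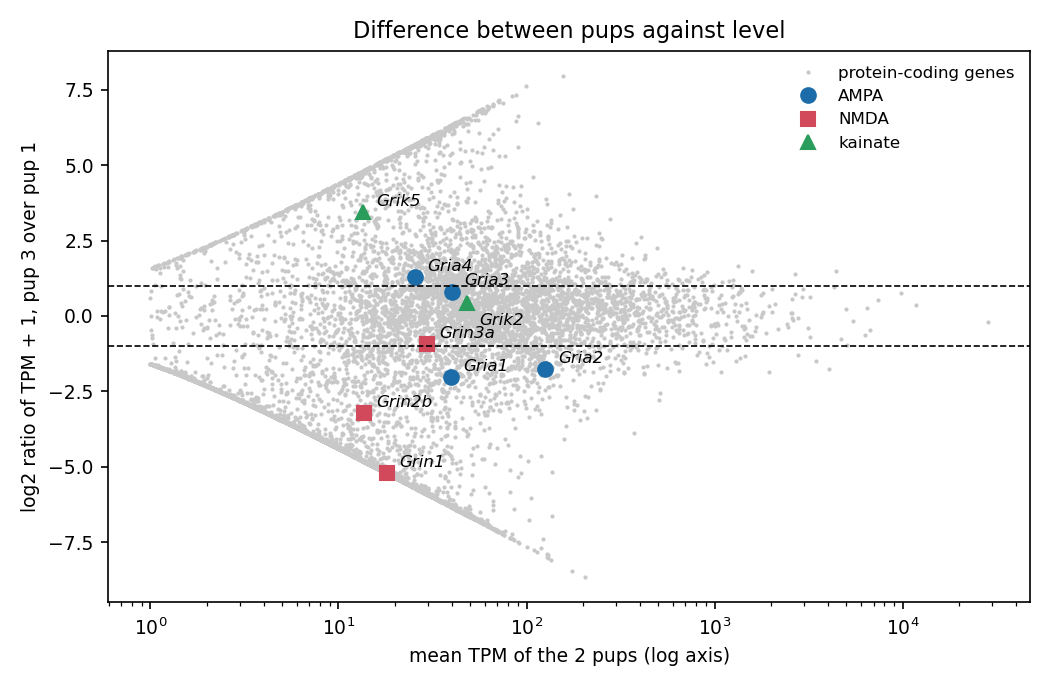
Log2 ratio of TPM + 1 (pup 3 over pup 1) against mean TPM (log axis) for protein-coding genes at a mean TPM of 1 or more (grey) and the members by family (coloured symbols); dashed lines mark 2-fold. Grin1 lies on the lower edge, where genes with no signal in pup 3 fall, Grik5 is the highest member at 3.44, and Gria3, Grik2 and Grin3a lie between the dashed lines.

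Transcript tables separate splice forms by the reads assigned to each annotated model. Each AMPA gene has a pair of mutually exclusive exons of 115 bases, flip and flop, that encode part of the ligand-binding domain next to the last membrane segment. Flip forms generally desensitize more slowly and are known to prevail in the newborn brain, with flop rising during postnatal maturation. In all 4 genes the flop exon comes first in the transcript, and from 724 (Gria1) to 14576 bases (Gria3) lie between the pair. The exons of Gria2 and Gria3 are shown because Gria2 was the leading member and Gria3 the gene whose flip share differed most between the libraries. They are on build GRCm38, 5′ to 3′ on the coding strand, with the bases that differ between flip and flop in capitals.
Gria2 flip, chr3:80690404-80690518, minus strand: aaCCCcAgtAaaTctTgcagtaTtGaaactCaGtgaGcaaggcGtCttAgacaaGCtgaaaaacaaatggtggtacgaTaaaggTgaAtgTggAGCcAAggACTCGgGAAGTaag
Gria2 flop, chr3:80691320-80691434, minus strand: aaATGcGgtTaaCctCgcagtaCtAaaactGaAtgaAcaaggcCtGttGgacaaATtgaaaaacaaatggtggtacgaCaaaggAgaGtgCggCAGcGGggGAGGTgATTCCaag
Gria3 flip, chrX:41669501-41669615, plus strand: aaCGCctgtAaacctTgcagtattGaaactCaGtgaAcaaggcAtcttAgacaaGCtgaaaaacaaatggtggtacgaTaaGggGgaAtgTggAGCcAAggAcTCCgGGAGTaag
Gria3 flop, chrX:41654810-41654924, plus strand: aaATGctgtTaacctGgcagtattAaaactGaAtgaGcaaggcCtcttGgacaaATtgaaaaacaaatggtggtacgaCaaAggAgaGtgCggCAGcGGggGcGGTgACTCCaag
Flip and flop differ at 36 of 115 bases in Gria1 and Gria2, at 32 in Gria3 and at 31 in Gria4.

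Among transcripts that hold either exon, flip led in 3 of the genes in pup 1 and was the sole form in Gria4, while pup 3 gave mixed results. For Gria2 the flip share was 91.8% of TPM in pup 1 and 97.3% in pup 3 (94.5% ± 3.90, SD, n = 2). By reads the Gria2 share was 81.0% (95% Clopper-Pearson interval 80.2 to 81.8) and 93.3% (92.5 to 93.9), beside a flop model of 10371 and a flip model of 4026 bases. The last exons of these models differ as well, at 7265 and 920 bases. For Gria1 it was 86.4% in pup 1 and 99.7% in pup 3 (93.0% ± 9.42, SD, n = 2). Flip was thus the main form of Gria1 and Gria2 in both libraries.

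Gria3 was assigned mainly to flip models in pup 1 and to flop models in pup 3. Its flip share was 96.9% in pup 1 and 15.1% in pup 3 (56.0% ± 57.8, SD, n = 2), and by reads 97.8% (97.3 to 98.2) and 24.95% (23.5 to 26.4). The flip model Gria3-201 held 28.0 TPM in pup 1 and 7.57 TPM in pup 3. In pup 3 the flop models Gria3-209 and Gria3-202 added 27.7 TPM (bounds 23.3 to 31.3) and 13.8 TPM (9.14 to 17.1), and both had 0 reads in pup 1. The models differ in their 3′ ends too, with a last exon of 2262 bases in Gria3-201 and of 246 bases in Gria3-209 and Gria3-202. Whether reads on the alternative exon or on the 3′ end set the assignment was not tested. The read intervals here and for Gria2 count every estimated read of a model as a separate observation of flip or flop. Most of each model lies outside the 115-base exon, so the intervals are too narrow for an exon share. Neither they nor the deposited bounds cover the sampling of molecules at 13 pg, and the part of that sampling in the difference was not tested.

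For Gria4, the flip model Gria4-202 took all 2032 reads in pup 1 (14.3 TPM). In pup 3, 98.4% of Gria4 TPM was assigned to Gria4-203 (35.9 TPM, bounds 33.6 to 36.8), a model of 2338 bases that ends in a last exon of its own and lacks the region of the flip and flop exons. It has a coding length of 1299 bases against 2706 in the full-length form. The 2 full-length models in pup 3 held 0.30 TPM and 37.4 reads each, so a flip share of Gria4 in that library rests on 1.64% of its TPM. Gria1 also used different models: the flip form Gria1-201 in pup 1 (55.4 TPM) and Gria1-204, a flip form with another first exon, in pup 3 (15.1 TPM), each with 0 reads in the other library.

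Over the AMPA genes together, flip transcripts summed to 175 TPM and flop transcripts to 16.6 TPM in pup 1, a flip share of 91.3%. The sums were 77.8 and 44.4 TPM in pup 3, a flip share of 63.7%. Gria3 supplied 5.49% of flop TPM in pup 1 and 95.8% in pup 3. Transcripts with neither exon held 111 TPM in pup 1, nearly all from Gria2, and 37.6 TPM in pup 3, nearly all from Gria4.

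**Figure D4:**
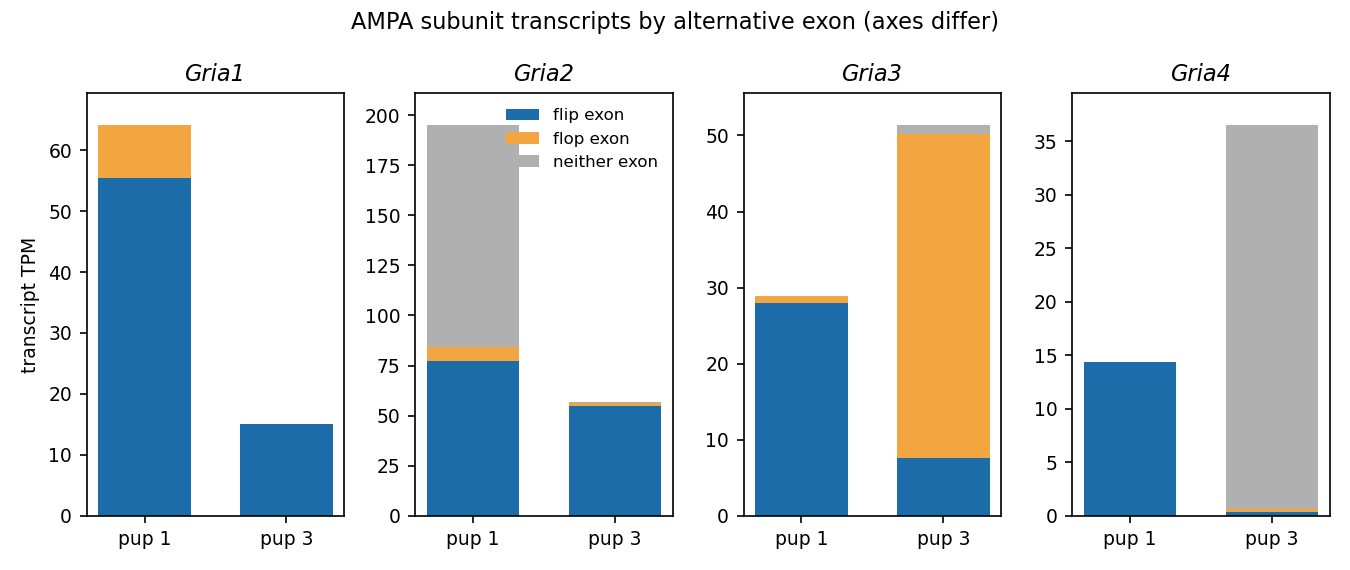
Transcript TPM of each AMPA gene (stacked bars, a separate axis for each gene) in models that hold the flip exon, the flop exon or neither, in pup 1 and pup 3. Flip fills most of Gria1 in both pups, models with neither exon fill 56.9% of Gria2 in pup 1 and 98.4% of Gria4 in pup 3, and flop fills most of Gria3 in pup 3.

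Part of the Gria2 signal in pup 1 lay in models annotated with a retained intron. Models annotated as non-coding held 111 TPM, or 56.9% of Gria2 TPM and 46.5% of its reads, in pup 1, and 0.41 TPM, or 0.721%, in pup 3. Gria2-206 (65.9 TPM in pup 1, 0.33 in pup 3) runs into intron 13 and Gria2-208 (31.3 and 0.08 TPM) into intron 10, and both end before the flip and flop exons. The full-length flip model Gria2-202 was nearer between pups, at 77.3 TPM (bounds 72.9 to 78.2) and 54.9 TPM (51.7 to 54.9). With the non-coding models left out, Gria2 levels were 84.2 and 56.4 TPM, 1.49-fold higher in pup 1 and no longer past 2-fold. Counting only models that hold flip or flop, the Gria2 share of AMPA TPM was 43.9% in pup 1 and 46.1% in pup 3. That count also drops the coding model Gria4-203, at 35.9 TPM in pup 3. With only the non-coding models left out, the mean Gria2 share was 39.9%. Levels in pup 1 and pup 3 were then 64.2 and 15.1 TPM for Gria1, 28.0 and 50.4 TPM for Gria3, and 14.3 and 36.5 TPM for Gria4.

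Among protein-coding genes at 10 TPM or more, 10.6% had over 50% of their TPM in models not annotated as coding in pup 1, and 12.6% did in pup 3. Gria2 and Grin1 were such genes in pup 1, and no member was in pup 3, Grik2 left aside because most of its transcripts have no annotated type here. The main transcript of Grin1 in pup 1 by TPM was Grin1-209, a processed transcript of 527 bases with 25.5 TPM (bounds 21.7 to 28.4), which is 70.3% of the gene's TPM but 21.3% of its reads. The remaining 1069 reads went to the coding model Grin1-205, at 10.8 TPM.

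Coding Grin1 models differ by an N-terminal cassette (N1), which alters proton and polyamine sensitivity, by a C-terminal cassette (C1) with an endoplasmic reticulum retention signal, and by the choice of the last part (C2 or C2 prime). Both cassette exons are on the minus strand of build GRCm38 and are shown because no read was assigned to a coding model that holds them. Models not annotated as coding were not checked for them, Grin1-209 with 70.3% of the gene's TPM in pup 1 included.
Grin1 N1, chr2:25311343-25311405: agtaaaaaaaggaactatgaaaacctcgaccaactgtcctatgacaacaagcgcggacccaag
Grin1 C1, chr2:25294438-25294548: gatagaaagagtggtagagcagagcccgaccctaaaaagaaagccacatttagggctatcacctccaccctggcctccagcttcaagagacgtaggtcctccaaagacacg
Grin1-205 lacks both and carries the C2 prime end, so in pup 1 the share of coding TPM was 0% for N1, 0% for C1 and 100% for C2 prime. The highest deposited upper bound of any coding model with the cassette was 1.26 TPM for N1 and 0.985 TPM for C1, against 10.8 TPM for Grin1-205.

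Grin2b-202, of 7484 bases, held 17.3 TPM in pup 1 and 0 in pup 3. Grin2b-201, which has the same coding length and a much longer last exon (23640 bases in all), held 2.53 TPM (1581 reads) and 0.98 TPM (534 reads). Short 5′ models supplied the rest, Grin2b-203 with 4.47 and 0.37 TPM and Grin2b-206 with 1.16 and 0.48 TPM. Grin3a was the most uniform of the genes with several models, since Grin3a-201 held 38.8 TPM in pup 1 and 19.6 TPM in pup 3, or 99.2% and 98.7% of the gene.

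Grik2 reads were divided differently in each library. The transcript ENSMUST00000105487 held 31.1 TPM in pup 1 and 16.0 TPM in pup 3, Grik2-201 held 2.24 and 26.0 TPM, and Grik2-202 held 7.24 TPM in pup 1 and 0 in pup 3. ENSMUST00000105483 held 13.6 TPM in pup 3 alone. Structures of the 2 models given by identifier were not used here, so the Grik2 forms were not sorted by exon. Grik5 has 1 listed transcript.

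Of the 7 members with several models and a TPM of 1 or more in both libraries, 2 had the same leading transcript in both, Gria2 (Gria2-202) and Grin3a (Grin3a-201). Among protein-coding genes under the same conditions, 63.7% had the same leader. Over all members, 25 of 61 transcripts had reads in pup 1 and 24 in pup 3, and 15 had reads in both. The share over all mouse transcripts was not taken, so these counts show nothing particular to the members.

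The glutamate receptor genes listed around the members were described in the same way. Of 68 such genes (other subunits, auxiliary proteins, scaffolds, metabotropic receptors, transporters and co-agonist enzymes), 21 were found in both libraries, beside 24.8% of all protein-coding genes. Of the 51 at a mean TPM of 1 or more, 35 were over 2-fold lower and 10 over 2-fold higher in pup 3, beside 48.2% and 23.1% of protein-coding genes at that level, and the same shares stand beside the counts of each list. Their median log2 ratio was -2.62 with 1 TPM added, and -6.04 as a plain ratio with libraries under 3 reads set to 3 reads, beside -0.82 and -0.85 for protein-coding genes at that level. No share of protein-coding genes was taken for those found in pup 1 alone. That library reached the threshold for 9061 protein-coding genes, against 6223 for pup 3. List counts for pup 1 alone therefore show nothing particular to a list.

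Of the 8 ionotropic subunit genes outside the members, Grid1 alone was found in both libraries, at 13.4 and 2.85 TPM. It encodes a receptor that acts mainly as a synaptic organizer. The kainate subunit genes Grik1 (19.4 and 0.02 TPM) and Grik3 (6.04 TPM and, to 2 decimals, 0.00 TPM) were found in pup 1 alone. Grik4 (0.96 and 0 TPM), Grin3b (0.01 and 0 TPM), Grin2c and Grin2d (0 in both) stayed under 1 TPM in each library.

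Auxiliary subunits set the trafficking and gating of AMPA and kainate receptors. Of 16 genes, 5 were found in both libraries, 7 in pup 1 alone and 1 in pup 3 alone. The highest were Olfm1, a secreted AMPA receptor partner (63.7 TPM in pup 1 and 106 in pup 3), Cnih2, a cornichon that slows channel closure (21.4 and 109 TPM), and its paralog Cnih3 (93.1 and 0 TPM). Of 11 at a mean TPM of 1 or more, 8 were over 2-fold lower and 2 over 2-fold higher in pup 3.

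Scaffold and trafficking genes, which anchor receptors at synapses, were found in both libraries for 6 of 24 and in pup 1 alone for 14. The highest were Lin7c (294 and 206 TPM), a cell polarity adaptor, Dlgap4 (348 and 0 TPM), a postsynaptic scaffold protein, and Camk2b (196 and 57.5 TPM), a calcium-dependent kinase subunit. Of 21 at a mean TPM of 1 or more, 14 were over 2-fold lower and 5 over 2-fold higher in pup 3.

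Among 7 metabotropic receptors, which act through G proteins, 2 were found in both libraries: Grm3 (24.1 and 39.5 TPM) and Grm5 (38.3 and 2.17 TPM). Grm2 had 0 TPM in pup 1 and 34.2 TPM in pup 3. Release and uptake genes were found in both libraries for 6 of 8, led by the glial glutamate transporter gene Slc1a3 (228 and 83.1 TPM), Glul for glutamine synthetase (122 and 89.6 TPM) and the vesicular transporter gene Slc17a6 (55.2 and 14.3 TPM). Of the 5 genes that supply NMDA receptor co-agonists, Srr for serine racemase was found in both (12.4 and 90.7 TPM). Slc7a10 (10.2 TPM) and Slc6a9 (10.1 TPM), which transport D-serine and glycine, were found in pup 1 and were at 0 in pup 3.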

How the data were processed

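Per the file headers, the authors deposited gene and transcript tables for each library with expected counts (estimated reads), TPM, posterior mean TPM with credibility bounds, and FPKM. A deposited column of transcript percent was left unused. The accompanying notes give mm10 as assembly and M4 as annotation. The aligner was not given in the sources used here, nor was the counter. Replicates are separate pups per the labels, and libraries were not pooled.

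Symbols, biotypes, exons and sequences came from GENCODE M21 on the same assembly: all 10 members matched, and 55 of the 61 transcripts (49 with equal length); the 6 unmatched belong to Grik2. Transcripts were classed by exons they hold. Flip and flop were told apart by the encoded motif LKLSE or LKLNE, since Gria4 flip lacks the longer motif LSEQG first planned. Grin1 cassettes were taken as the inner exons that some coding Grin1 transcripts lack, and were named by position.

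A gene was found at a TPM of 1 or more. Log2 ratios used a pseudocount of 1 TPM. The design allows no test, so no p-value is given. TMM factors (0.919 and 1.09, edgeR 4.0.16, R 4.3.3, 11993 genes with at least 10 rounded reads) served an alternative in CPM. Other alternatives were non-coding transcripts left out, plain CPM, FPKM, posterior mean TPM, other thresholds and pseudocounts, and each pup alone. Read intervals are 95% Clopper-Pearson on rounded estimated reads of whole models, and so do not measure the error of an exon share. Tools were scipy 1.17.1, numpy 2.4.6, pandas 2.3.3, matplotlib 3.10.9 and Python 3.11.15. The fold calls and the choice of leading transcripts were tested on simulated data without loss of molecules. The classing of transcripts by exon was not tested in that way. Members and lists were chosen with earlier results of these data known. Named are all members, the other ionotropic subunits (a gene that the rule takes is not reported here), the 3 highest genes of each other pathway list, and transcripts with 5% or more of a member's TPM in either pup.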

Additional observations from a re-analysis of the deposited data

How the results depend on the processing

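Over 32 results there were 98 alternative values that keep both pups, of which 84 stayed within a set margin and 14 moved further. The margin was the spread between pups for shares and levels, which is wide with 2 pups. For counts it was 1.5 times the count, and for the median log2 ratio a fixed difference. A reversal was defined for the median log2 ratio alone, and 0 of its values reversed. The 50 values from leaving out a pup are those of the other pup and say nothing about stability. On CPM with TMM factors, 1 member (Grik5) was over 2-fold higher in pup 3, in place of 2, and the sign of the Grik2 ratio, which is not among the 32, turned. The median log2 ratio of the members, -0.47, was -0.34 in FPKM, -0.95 over members at a mean TPM of 10 or more, and -0.28 without transcripts annotated as non-coding, an alternative chosen after seeing the data. Grin2b held 98.5% of the Grin2a and Grin2b pair by posterior mean TPM, in place of 100%, and the Gria2 flip share was 87.1% by transcript reads, in place of 94.5%. The posterior mean gave coding Grin1 models with N1 and C1 shares of 6.73% and 5.59% in pup 1, in place of 0%. Ratios between pups have no value with a pup left out. No paired analysis was possible because there was 1 group. The mean Grin1 share of NMDA TPM, 18.0%, was 4.85% by reads and 7.18% without non-coding transcripts. Ratios in CPM without TMM factors and family ratios on other scales were also added after seeing the data. Low reads widened the deposited bounds, as for Grin2b in pup 3 (1.49 to 2.62 TPM at 544 reads), and molecules lost at 13 pg were not measured.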

Other observations

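Genes known to edit or splice receptor transcripts were also listed. Of 14, 6 were found in both libraries and 7 in pup 1 alone; of 13 at a mean TPM of 1 or more, 8 were over 2-fold lower and 1 over 2-fold higher in pup 3, beside 48.2% and 23.1% of protein-coding genes at that level. Their median log2 ratio was -2.91 with 1 TPM added and -7.30 as a plain ratio with libraries under 3 reads set to 3 reads. No background share was taken for the count of 7, so it shows nothing particular to this list. The highest were Hnrnph1, an RNA-binding splicing regulator (258 TPM in pup 1 and 249 TPM in pup 3), Ptbp2, the neural polypyrimidine tract binding protein (104 and 62.5 TPM), and Rbfox1, a neuronal splicing factor (138 and 17.9 TPM). Editing of the Gria2 messenger RNA could not be read from these tables.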
